A study of Rattus norvegicus with 7 samples.

Results

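Antimicrobial and oxidant defence effectors are described here as a set of 10 genes, Dmbt1, Lyz2, Pla2g2a, Defa6, Camp, Lcn2, Wfdc2, Slpi, Duox2 and Nos2, taken by symbol from a table of 16468 genes. All 10 symbols were found. The values come from mRNA sequencing of colonic crypts of 14-week-old Sprague Dawley rats, an outbred strain, with no treatment or genotype named in the labels. There was 1 library of proximal and 1 of distal colon crypts, each made from 7 pooled rats. The labels do not say whether the same rats gave both pools. With 1 library per region there is no spread between replicates, so every difference below compares these 2 libraries and has no replicate check. The chromatin libraries of the series, 5 in number, were not analysed here.

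These genes encode proteins with which an epithelium keeps bacteria off its surface. Some bind or kill bacteria directly: the agglutinin Dmbt1, the cell wall enzyme lysozyme, the membrane-cleaving phospholipase Pla2g2a, and the pore-forming peptides of the defensin and cathelicidin families. Lipocalin 2 withholds iron by binding bacterial siderophores, and the proteins of the WAP (whey acidic protein) family, such as Slpi, inhibit proteases and can have antibacterial activity. Duox2 releases hydrogen peroxide at the cell surface and Nos2 makes nitric oxide, the oxidant side of the same defence. Several of them, Lyz2, Camp and Lcn2 in particular, are also made by phagocytes.

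The effectors did not form a group with 1 direction. Of the 10 genes, 9 reached 1 FPKM (fragments per length of transcript and size of library, so a level per length) in at least 1 library and are called measured. Higher in proximal crypts by 2-fold or more were 4 of them, Dmbt1, Lyz2, Lcn2 and Defa6, where 3.91% of all 9847 measured genes were. Higher in distal crypts by 2-fold or more were 2, Wfdc2 and Duox2, where 3.71% of measured genes were. The other 3, Pla2g2a, Camp and Slpi, were less than 2-fold apart on the scale used for these counts, the log2 ratio of distal to proximal values after 1 FPKM was added to each; this scale shrinks ratios of low genes. Together 6 of 9 were 2-fold or more apart, against 7.62% of all measured genes in either direction. The effectors were chosen with earlier results of these data known, so this comparison is no test of the set. The median log2 ratio was -0.44 over the 9 measured effectors and 0.09 over all measured genes. The authors' deposited table called Wfdc2 and Duox2 higher in the distal library, a call it made for 2.73% of 10099 tested genes. It called Dmbt1 and Lyz2 higher in the proximal library, a call made for 2.69%. In bulk crypt preparations fewer cells of a type and less RNA per cell cannot be told apart.

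**Figure D1:**
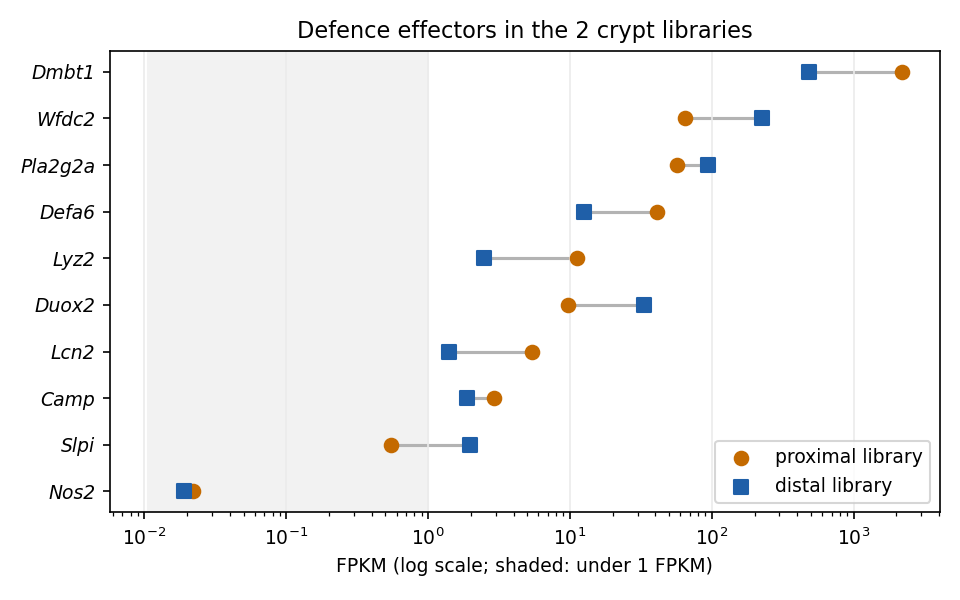
FPKM of the 10 defence effectors (log axis) in the proximal (circles) and distal (squares) library, 1 library each, ordered by the proximal value; the shaded area lies under 1 FPKM. Dmbt1 is the highest effector in both libraries, at 2193 and 481 FPKM, and Nos2 is the lowest.

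The levels of the effectors differed widely. Dmbt1 ranked 8th of all genes in the proximal library and 115th in the distal library. It made up 92.0% of the summed FPKM of the 10 effectors in the proximal library (2384 FPKM) and 56.3% in the distal library (854 FPKM). Without Dmbt1 the order of the libraries turned: the other effectors summed to 192 FPKM in proximal and 373 FPKM in distal crypts, and 60.3% of that distal sum was Wfdc2. A sum over the set is thus mostly its most abundant gene, and the effectors are given 1 by 1 below.

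The promoters of the effectors at least 2-fold apart are shown where the RefSeq promoter table (build GRCr8) held them, which it did for 6 effectors in all, 4 of them at least 2-fold apart. Each window runs 5′ to 3′ on the strand of its gene, from 250 bases before to 50 bases after the annotated start. Capitals mark matches on either strand to any of 4 motifs: GGG and CC with any 5 bases between them, the spacing of NF-kappaB sites; TTNNGCAA, a C/EBP type of site; TTCNNNGAA, a STAT type of site; and the TATA box TATAAA. The first pair was higher in the proximal library and the second pair in the distal library.
Lyz2, chr7:54797962-54798261, minus strand: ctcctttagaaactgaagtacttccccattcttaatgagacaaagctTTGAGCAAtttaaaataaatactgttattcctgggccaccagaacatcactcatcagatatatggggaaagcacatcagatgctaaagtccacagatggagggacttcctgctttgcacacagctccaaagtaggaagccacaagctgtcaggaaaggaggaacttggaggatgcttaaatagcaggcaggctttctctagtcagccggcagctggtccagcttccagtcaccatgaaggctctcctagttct
Lcn2, chr3:36081731-36082030, minus strand: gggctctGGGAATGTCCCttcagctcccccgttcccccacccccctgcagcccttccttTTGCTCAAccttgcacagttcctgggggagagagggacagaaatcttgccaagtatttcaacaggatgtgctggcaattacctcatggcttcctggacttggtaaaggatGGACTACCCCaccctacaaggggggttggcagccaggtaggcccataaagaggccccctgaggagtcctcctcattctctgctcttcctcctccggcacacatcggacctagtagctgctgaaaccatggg
Wfdc2, chr3:173706225-173706524, plus strand: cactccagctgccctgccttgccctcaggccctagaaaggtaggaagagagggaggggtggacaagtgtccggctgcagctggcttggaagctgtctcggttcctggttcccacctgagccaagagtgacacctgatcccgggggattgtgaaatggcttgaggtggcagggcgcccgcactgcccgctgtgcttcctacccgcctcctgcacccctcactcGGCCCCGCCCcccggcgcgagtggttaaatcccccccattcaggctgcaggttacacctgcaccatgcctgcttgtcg
Duox2, chr3:129698704-129699003, minus strand: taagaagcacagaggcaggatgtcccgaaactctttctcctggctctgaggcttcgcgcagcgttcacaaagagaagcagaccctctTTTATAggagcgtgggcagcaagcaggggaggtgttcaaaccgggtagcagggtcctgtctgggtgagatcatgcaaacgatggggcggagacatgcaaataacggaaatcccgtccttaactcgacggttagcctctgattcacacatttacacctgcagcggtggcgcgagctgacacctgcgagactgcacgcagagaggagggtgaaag

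Both promoters of the proximal pair held TTNNGCAA, and the distal pair had no motif in common. In Lyz2 the match, TTGAGCAA, began at position -203 counted from the start, and there was no match to the other motifs. In Lcn2 it was TTGCTCAA at position -191, and this window also held 3 matches to the GGG and CC pattern. Of these, the matches at -243 and -242 overlap near the far end of the window and lie on opposite strands. Wfdc2 had 1 match to the GGG and CC pattern, in a window of 64.3% G and C against a median of 51.7% over all promoters. Duox2 had 1 match to TATAAA, on the other strand and beginning at position -163. Of 33469 promoters of this length, 47.3% held the GGG and CC pattern, 10.6% TTNNGCAA, 8.87% TTCNNNGAA and 14.2% TATAAA, so the first is a common match. The promoters of Pla2g2a and Camp, which are not shown, held no TTNNGCAA, and none of the 6 held TTCNNNGAA. A match says only that these letters occur in the window.

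Among proteins that bind bacteria, Dmbt1, a secreted scavenger receptor protein of mucus, was the effector furthest apart. It stood at 2193 FPKM in proximal and 481 FPKM in distal crypts, 4.56-fold higher in proximal crypts. Among the 937 genes that reached 100 FPKM in a library, 1.28% were as far or further on the proximal side. The authors' deposited table listed a log2 change of -2.19 (implied standard error 0.49) and a q of 0.00042. The implied standard error is the ratio of that table's log2 fold change to its test statistic, and holds nothing on how rats vary. For Dmbt1 it was larger than the median of 0.32 in its level class. The locus of Dmbt1 in the table, chromosome 1 at 190378412 to 190693131 of the rn4 build, is 314720 bases long, and no other row overlaps it. Of 4 other measured genes on the list of scavenger receptor and related proteins, 1 was higher in proximal crypts by 2-fold or more, Lgals3bp, a secreted galectin ligand, at 18.9 and 7.53 FPKM in proximal and distal crypts (2.51-fold), and none in the distal library. The median log2 ratio of these 4 was -0.41.

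The pair of enzymes that attack bacterial envelopes went opposite ways. Lyz2, a lysozyme that cuts peptidoglycan, stood at 11.1 FPKM in proximal and 2.497 FPKM in distal crypts, 4.47-fold higher in proximal crypts. The authors' deposited table listed a log2 change of -2.16 (implied standard error 0.61) and a q of 0.0118. Its locus, chromosome 7 at 56607708 to 56613053 of rn4, is shared base for base with Lyc2, another lysozyme gene, which is listed at 0 in both libraries. How reads were divided between these related genes is stated in no source used here, so the Lyz2 value is uncertain in that respect. Of the 6 other lysozyme-family rows none reached 1 FPKM and 5 were listed at 0 in both libraries. Lyz2 is also a macrophage gene. The 14 other macrophage markers, taken up below, summed to 119 FPKM in proximal and 131 FPKM in distal crypts. Most of this sum was Cd14, at 101 and 116 FPKM. Of the 7 measured ones, 5 were higher in proximal crypts, 1 of them by 2-fold or more, and 2 in distal crypts. The median log2 ratio of these 7 was -0.27. General leucocyte markers summed to 58.9 and 20.6 FPKM. The part of macrophages and other leucocytes in the Lyz2 value was not tested.

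Pla2g2a, a secreted phospholipase A2 that degrades membranes of Gram-positive bacteria, stood at 56.6 and 94.6 FPKM in proximal and distal crypts. It was 1.67-fold higher in distal crypts, and the authors' deposited table did not call it (log2 fold change 0.74, implied standard error 0.33, q 0.263). Its locus is on chromosome 5 at 157654786 to 157657363 of rn4. Of 6 other measured genes of secreted and related phospholipases, 1 was at least 2-fold apart, and their median log2 ratio was 0.40. The value was higher in distal crypts for 5 of them, and for 4 with equal upper quartiles. The gene at least 2-fold apart was Pla2g2f, at 0.133 and 4.11 FPKM. Pla2g10, named after its values were seen as the most abundant of the family, stood at 119 and 224 FPKM, 1.88-fold higher in distal crypts, and the authors' deposited table called both.

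Both peptide genes of the set had the higher value in proximal crypts, Defa6 by more than 2-fold and Camp by less. Defa6, an alpha-defensin of the type that Paneth cells of the small intestine secrete, stood at 41.1 FPKM in proximal and 12.6 FPKM in distal crypts, 3.26-fold higher in proximal crypts. The authors' deposited table listed a log2 change of -1.71 (implied standard error 0.73) and did not call it (q 0.208). The precision is low for its level, since the median implied standard error for genes of 20 to 100 FPKM was 0.31. Its locus is short, 875 bases on chromosome 16 at 75087445 to 75088319 of rn4.

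Defa6 lies in the alpha-defensin cluster, of which 10 rows are described here: 5 were measured and 5 were listed at 0 in both libraries. All 5 measured rows were higher in the proximal library, from 1.31-fold to 3.26-fold, 4 of them at least 2-fold, Defa6 included. Defa24 stood at 21.3 and 10.01 FPKM in proximal and distal crypts, Defa8 at 22.996 and 8.80 FPKM, and RatNP-3b at 4.53 and 1.57 FPKM. Defa9 was the exception below 2-fold, at 39.9 and 30.6 FPKM. Summed over these 10 rows the level was 129.8 FPKM in proximal and 63.5 FPKM in distal crypts. None of these rows was called in the authors' deposited table. Alpha-defensin genes are close copies of each other, and 4 rows, RatNP-3b, Np4, Defa10 and Defa11, share 1 locus in the table, so the split of reads between rows is uncertain and the 5 measured rows are not 5 separate observations. Np4 and RatNP-3b both encode neutrophil peptides; Np4 was listed at 0 in both libraries, while RatNP-3b had the values above. The 39 beta-defensin rows (Defb genes) were all listed at 0 in both libraries.

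**Figure D2:**
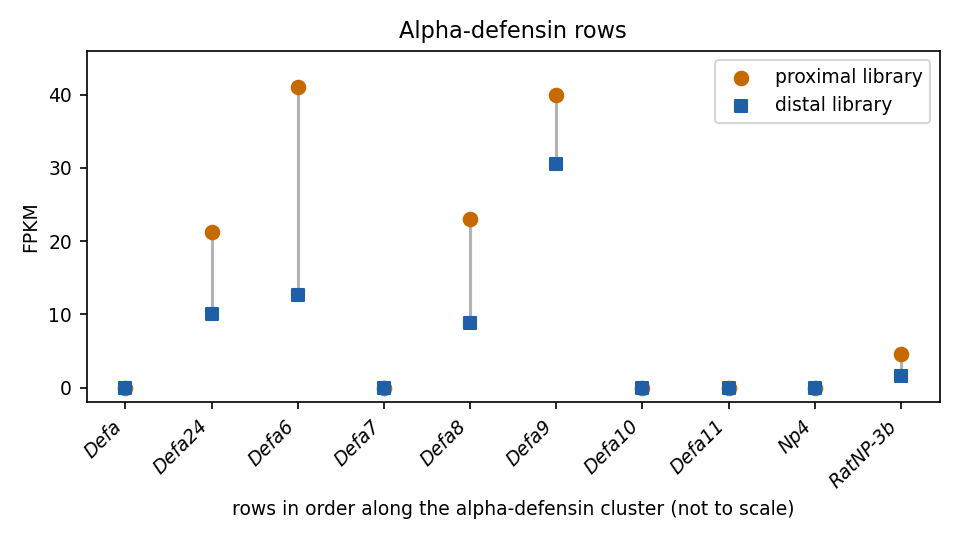
FPKM (linear axis) of 10 alpha-defensin rows in their order along the cluster, in the proximal (circles) and distal (squares) library; the last 4 rows share 1 locus and have no order among themselves. The 5 measured rows lie higher in the proximal library, with the widest gap in FPKM at Defa6 (41.1 and 12.6) and a narrow one at Defa9 (39.9 and 30.6).

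Camp, the cathelicidin, a peptide stored in neutrophil granules and also made by epithelium, was low in both libraries, at 2.91 FPKM in proximal and 1.88 FPKM in distal crypts (1.55-fold). The authors' deposited table listed a log2 change of -0.63 (implied standard error 0.82, q 0.9996), so the change is smaller than that error. Among genes of 1 to 5 FPKM, 24.8% were as far or further on the proximal side. Its locus is on chromosome 8 at 114214915 to 114216728 of rn4.

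Lcn2, which starves bacteria of iron, was also low. It stood at 5.42 FPKM in proximal and 1.41 FPKM in distal crypts, 3.84-fold higher in proximal crypts. The authors' deposited table listed a log2 change of -1.94 (implied standard error 0.73) and a q of 0.111, and did not call it. Its locus lies on chromosome 3 at 11511402 to 11514747 of rn4. The 4 other measured genes on the list of lipocalins and Lcn2 uptake were less than 2-fold apart after 1 FPKM was added, with a median log2 ratio of -0.08. By the plain ratio Lcn12, at 2.63 and 1.24 FPKM, was 2.12-fold higher in proximal crypts, and Apom, at 1.64 and 3.66 FPKM, 2.23-fold higher in distal crypts. Slc22a17, a receptor for lipocalin 2, stood at 7.33 and 7.10 FPKM.

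The WAP proteins in the set, Wfdc2 and Slpi, were both higher in the distal library, at very different levels. Wfdc2, a secreted WAP protein of mucosal epithelia, stood at 64.3 FPKM in proximal and 225 FPKM in distal crypts, 3.50-fold higher in distal crypts. The authors' deposited table listed a log2 change of 1.81 (implied standard error 0.32) and a q of 1.95e-06. Genes at 100 FPKM and over were more often 2-fold higher in distal crypts (7.47%) than all measured genes, and 3.31% of them were as far apart as Wfdc2 or further. Slpi, the secretory leukocyte protease inhibitor, stood at 0.548 and 1.99 FPKM. The plain ratio was 3.62, but the proximal value is near what 3 reads give a gene of about 942 bases, 0.426 FPKM. That level is higher for shorter transcripts, and the transcript length of Slpi was not examined. The authors' deposited table listed a log2 change of 1.86 (implied standard error 0.98) and a q of 0.450. This error was the largest among the 9 measured effectors.

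Slpi and Wfdc2 both lie in the WAP gene region of chromosome 3. Slpi is at 155373825 to 155376074 and Wfdc2 at 155582378 to 155588056 of rn4, with 206303 bases between them. Whether other genes lie in between was not examined. Of 12 other WAP-domain rows only 3 were measured and 7 were listed at 0 in both libraries. The median log2 ratio of these 3 was -0.62, on the proximal side. Wfdc16, the only one at least 2-fold apart, was listed at 0 in the proximal and stood at 1.08 FPKM in distal crypts. It was under 2-fold with equal upper quartiles, and the authors' deposited table did not call it (q 0.569). Wfdc1, named after its values were seen as the most abundant of the others, was higher in the proximal library, at 80.2 and 41.5 FPKM (1.93-fold).

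On the oxidant side, Duox2 and its maturation factor were higher in distal crypts. Duox2, the dual oxidase of the colon surface, stood at 9.61 FPKM in proximal and 33.2 FPKM in distal crypts, 3.45-fold higher in distal crypts. The authors' deposited table listed a log2 change of 1.79 (implied standard error 0.31), the smallest of the 9 measured effectors, and a q of 6.58e-07. The factor, Duoxa2, whose locus begins 784 bases from that of Duox2 on chromosome 3 (Duox2 at 109059360 to 109077106 of rn4), stood at 5.64 and 14.3 FPKM (2.54-fold), and was not called there (q 0.254). The adjacent second pair, named after its values were seen, was low: Duox1 stood at 0.170 and 0.576 FPKM and its factor Duoxa1 at 1.46 and 0.840 FPKM.

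Nos2, the inducible nitric oxide synthase, stood at 0.0222 FPKM in proximal and 0.0189 FPKM in distal crypts and was not tested by the authors. Both values lie far under the 0.426 and 0.339 FPKM that 3 reads give a gene of olfactory receptor length in the 2 libraries, a level that is lower for longer genes such as Nos2. No difference was detectable at this depth and no fold is given. Its locus is on chromosome 10 at 65036884 to 65072453 of rn4. Nos1 and Nos3 were listed at 0 in both libraries, so no nitric oxide synthase gene was measured at 1 FPKM.

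Around Duox2 and Nos2, 17 other measured genes of oxidant and nitric oxide chemistry were split, with 4 higher in distal crypts by 2-fold or more, 2 in the proximal library and 11 in neither. Their median log2 ratio was 0.01, and it was negative after either rescaling of the libraries (-0.09 with the median ratio of all genes set to 0, -0.16 with equal upper quartiles). Lpo, lactoperoxidase, a secreted enzyme that uses hydrogen peroxide to make antibacterial oxidants, stood at 67.6 and 309 FPKM, 4.58-fold higher in distal crypts. Cyba, the membrane subunit shared by several NADPH oxidases, stood at 135 and 310 FPKM (2.29-fold). Arg1, an arginase that uses the same substrate as Nos2, stood at 0.245 and 1.86 FPKM. Lpo, Cyba and Arg1 carry a call in the authors' deposited table, and Duoxa2 does not.

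Among subunits typical of the phagocyte oxidase, Ncf1 and Cybb went the other way, as did the leucocyte marker sum. Ncf1, its organiser subunit, stood at 7.12 FPKM in proximal and 2.02 FPKM in distal crypts (3.53-fold). Cybb, its catalytic subunit, named after its values were seen, stood at 1.82 and 0.269 FPKM. Both carry a proximal call in the authors' deposited table. Nox1 was not analysed here.

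**Figure D3:**
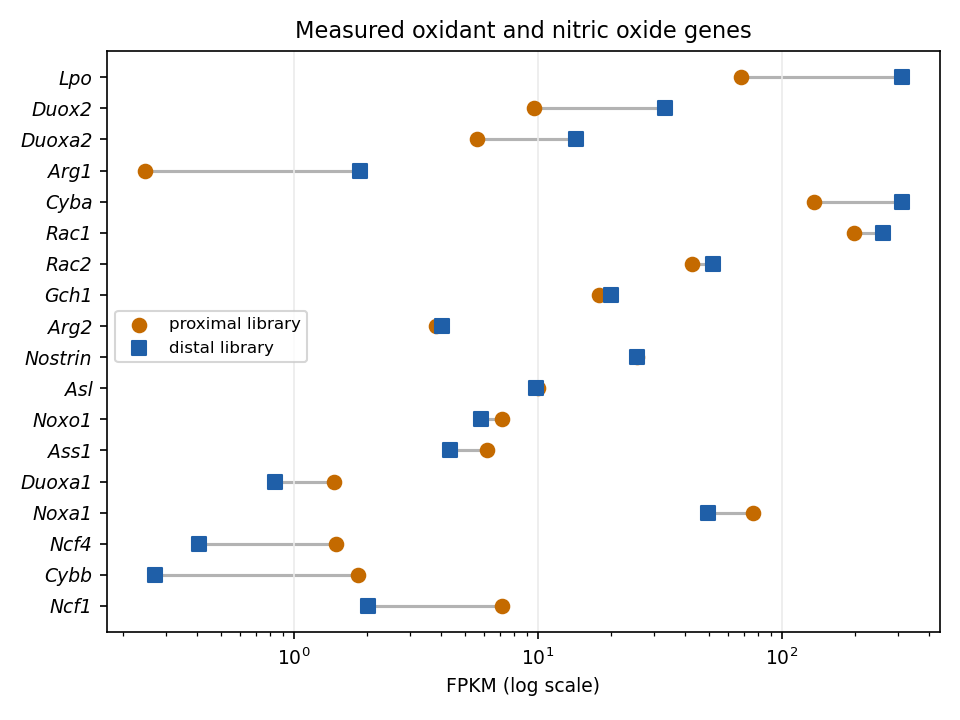
FPKM (log axis) of the measured genes of oxidant and nitric oxide chemistry, Duox2 included, in the proximal (circles) and distal (squares) library, ordered by log2 ratio with the most distal at the top. Lpo, Duox2, Duoxa2, Arg1 and Cyba stand at the distal end, Cybb and Ncf1 at the proximal end, and Noxa1, Noxo1, Rac1 and Rac2 lie less than 2-fold apart.

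Of 31 measured receptors, kinases and transcription factors of the signalling that can induce these effectors, 3 were 2-fold or more apart, near the 7.62% of all measured genes, and the median log2 ratio was -0.06. The flagellin receptor Tlr5 stood at 22.6 and 2.54 FPKM in proximal and distal crypts (8.92-fold higher in proximal crypts). The interleukin receptor Il1r1 stood at 9.74 and 3.95 FPKM (2.47-fold higher in proximal crypts). The lipopolysaccharide receptor Tlr4 stood at 11.8 and 38.3 FPKM (3.23-fold higher in distal crypts). The cytokine genes Il17a, Il22 and Il6 were listed at 0 in both libraries. The other cytokine genes of this list were low, and none was called in the authors' deposited table. Tnf stood at 1.45 and 0.345 FPKM in proximal and distal crypts, and Il1b at 0.707 and 0.358 FPKM. Ifng and Il17f stood at 0.270 and 0.0734 FPKM in the proximal library and were listed at 0 in the distal one. Of 7 measured proteases and inhibitors that process or oppose the effectors, Klk1, a kallikrein, was higher in distal crypts by 2-fold or more, at 163 and 346 FPKM (2.12-fold), and was under 2-fold after either rescaling; none was 2-fold higher in proximal crypts.

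**Figure D4:**
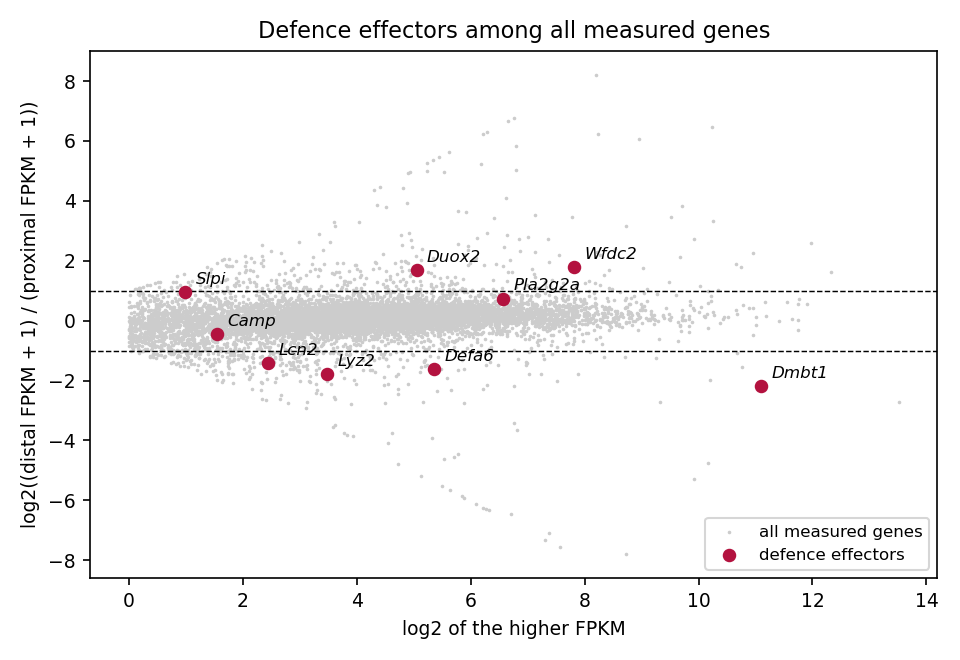
The log2 ratio of distal over proximal (FPKM + 1) against log2 of the higher FPKM for 9847 measured genes (grey), with the 9 measured effectors in red; dashed lines mark 2-fold. Dmbt1, Lyz2, Lcn2 and Defa6 lie under the lower line, Wfdc2 and Duox2 over the upper line, and Slpi just under it.

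Markers of cells that could contribute these transcripts also differed between the libraries. Of 11 measured epithelial markers none was 2-fold apart (median log2 ratio 0.24, or 0.07 with equal upper quartiles), and Epcam stood at 1490 and 1991 FPKM, as the label of colon crypts calls for. General leucocyte markers were split: 4 of 7 were higher in proximal crypts by 2-fold or more, the other 3 were less than 2-fold apart, and the sum over the 7 was 58.9 FPKM in proximal and 20.6 FPKM in distal crypts. The 4 were Cd79b, Ptprc, Coro1a and Laptm5. Cd79b, a subunit of the B cell receptor and so a B cell gene, was furthest apart, at 8.80 and 0.502 FPKM. Ptprc, the leucocyte surface phosphatase, stood at 8.97 and 1.44 FPKM. The T cell receptor subunits Cd3g, at 6.37 and 6.49 FPKM, and Cd3e, at 1.40 and 1.03 FPKM, and Cd52, at 0.817 and 1.62 FPKM, were the other 3. The levels of the first 4 moved in the same direction as Lyz2, Lcn2, Ncf1 and Cybb, and their part in those results was not tested. Of 14 macrophage markers other than Lyz2, 7 were measured, 1 of them (Cybb) higher in proximal crypts by 2-fold or more, and the sum over the 14 was 119 and 131 FPKM, most of it Cd14 (101 and 116 FPKM). The macrophage markers Emr1 and Cd163 were listed at 0 in both libraries. Of the complement genes of macrophages, C1qa stood at 3.72 and 3.57 FPKM, C1qb at 3.08 and 2.15 FPKM, and C1qc at 2.97 and 4.62 FPKM. Cd68 stood at 2.98 and 2.30 FPKM and Aif1 at 1.14 and 0.553 FPKM. Among the 7 measured macrophage markers, 5 were higher in proximal crypts and 2, Cd14 and C1qc, in distal crypts. The median log2 ratio of the 7 was -0.27.

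Of 14 neutrophil markers other than Camp, 3 were measured. S100a8 was listed at 0 in the proximal library and stood at 3.19 FPKM in the distal one, Mmp9 stood at 1.55 and 0.135 FPKM, and the sums over the 14 were 3.65 and 7.20 FPKM. The granule genes Mpo, Elane, Ltf and Prtn3 were listed at 0 in both libraries. Of 8 Paneth cell markers other than Defa6 and Pla2g2a, 5 were measured, of which Defa8 and Defa24 were 2-fold or more higher in proximal crypts, and Itln1 and Cd24, which other colon cells also express, in distal crypts, with sums over the 8 of 1217 and 5759 FPKM, mostly Itln1 (671 and 4023 FPKM). Mmp7, the protease that activates alpha-defensins in mouse Paneth cells, stood at 1.09 and 0.689 FPKM. Goblet cell markers were higher in the distal library, 4 of 10 by at least 2-fold against 1 in the proximal library (Spink4, at 236 and 68.0 FPKM), with sums of 3682 and 8569 FPKM. The 4 were Retnlb, Clca1, Fcgbp and Tff3. The other 5 were less than 2-fold apart, among them Agr2 at 1410 and 1630 FPKM and Spdef at 92.5 and 108 FPKM. The distal direction is also that of Wfdc2 and Duox2, and the part of goblet cell number in those values was not tested. Markers of acinar pancreas and serosa did not reach 1 FPKM in any of 6 cases.

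**Figure D5:**
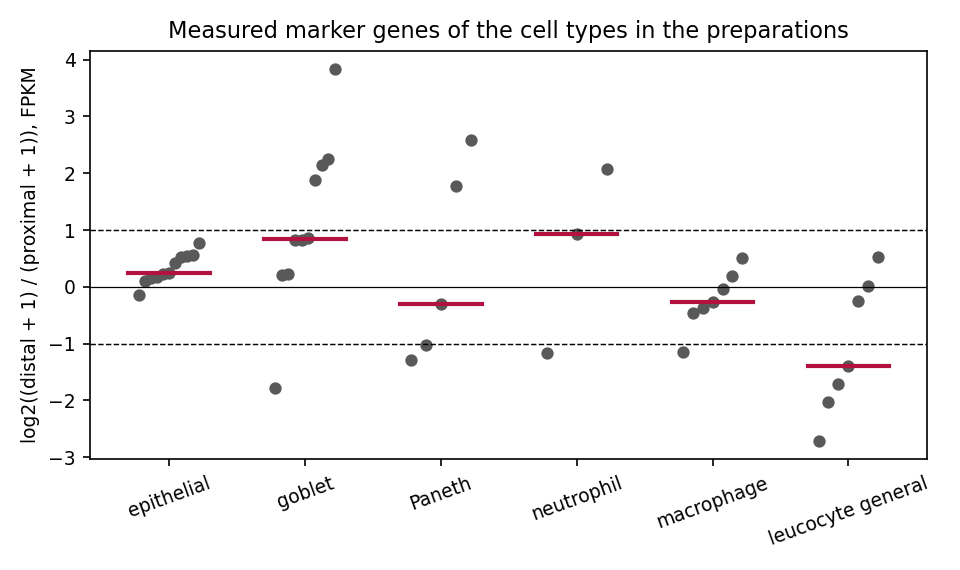
Log2 ratio of distal over proximal (FPKM + 1) of the measured markers of 6 cell classes, without the defence effectors; each point is 1 gene, red bars are medians and dashed lines mark 2-fold. Epithelial markers lie within 2-fold, the leucocyte median is -1.40 and the goblet median 0.85.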

How the data were processed

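mRNA was measured in 2 libraries, 1 per colon region, each from 7 pooled rats; groups were taken from the titles, and each column of values from the region name printed in its rows. Per the submitters' processing notes, CASAVA, TopHat2 and the build rn4 go with these samples, with no versions. The deposited values are read as the authors' FPKM because of their non-whole values and unequal sums (413026 and 463561); no source used here names the unit or the scaling between libraries. P-values, q-values and calls are those of the authors' deposited table. Its log2 fold change uses no pseudocount. Loci were converted to start at 1.

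Of 16492 rows, 22 low in data, 1 failed and 1 repeated row were left out. No source used here gives read totals. The level of 3 reads is approximate: 1 read was taken as the commonest p-value among rows at 0 in the other library, in 8 proximal and 4 distal olfactory receptor rows. Ratios used a pseudocount of 1 FPKM and a minimum of 1 FPKM in 1 library. No test between regions was made. The alternatives were other pseudocounts, minimums, fold thresholds and rescalings, and leaving out rows that share a locus. The ratio step was tested on simulated data.

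The effectors and gene lists were chosen with earlier results of these data known. All effectors are named, and of each list up to 5 genes at least 2-fold apart, or the most abundant one where there is none; other names were chosen after their values were seen. List genes not found in the table were not analysed here, and some genes are not reported here. Promoter sequences are from RefSeq (GRCr8). Python 3.11.15, pandas 2.3.3 and matplotlib 3.10.9 were used.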

Additional observations from a re-analysis of the deposited data

How the results depend on the processing

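The distal count of 2 was 4 at 1.5-fold (with Pla2g2a and Slpi), 0 at 4-fold and 3 with a pseudocount of 0.1 FPKM (with Slpi). The proximal count of 4 was 1 at 4-fold (Dmbt1), 3 with a pseudocount of 5 FPKM (without Lcn2) and 3 without genes sharing a locus (without Lyz2). Rescaling the distal library to the same upper quartile moved the median log2 ratio of all measured genes from 0.09 to -0.06, a shift of -0.16, and kept the same 6 effectors past 2-fold, as did the rescaling to a median of 0. With q under 0.01 the authors' deposited table called 1 effector higher in the proximal library (Dmbt1) in place of 2. Of 40 recomputed log2 ratios of single effectors, 39 moved by less than their implied standard error. The other was Lyz2, at -1.11 with a pseudocount of 5 FPKM. These errors are wide for low genes, so the count says little on stability there. Slpi went from 0.95 to 1.69 with a pseudocount of 0.1 FPKM and to 0.33 with 5 FPKM (error 0.98). Lcn2 went from -1.41 to -0.70 with 5 FPKM (error 0.73). Nos2, near 0 FPKM in both libraries, could hardly move. Counts for the surrounding lists were recomputed under alternatives chosen after seeing the data; with a pseudocount of 5 FPKM, the other genes at least 2-fold higher in proximal crypts went from 3 to 1 for defensins, from 2 to 0 for oxidant enzymes, from 1 to 0 for scavenger receptor proteins and from 2 to 1 for the signalling genes, and those higher in distal crypts from 4 to 2 for oxidant enzymes, from 1 to 0 for phospholipases and from 1 to 0 for WAP domain proteins. With a pseudocount of 0.1 FPKM the lipocalin list had 1 such gene in each direction in place of 0. No library could be left out, since each region had 1. No paired analysis was possible because each region had 1 library.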
